A study of Homo sapiens with 6 samples.

Results

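In MDA-MB-231 cells, an established line of human triple-negative breast cancer, E2F1 was mapped by ChIP-seq, which sequences the DNA fragments that an antibody pulls down. The subject here is 7924 E2F1 peaks that lay away from promoters and were called only after DMSO, the solvent control. They are referred to as the distal DMSO-only peaks. They were chosen by the peak calls themselves. A peak of the DMSO list belonged when its summit, the base with the most fragments, was more than 1 kb from every transcription start site (TSS) of GENCODE release 44, and when it shared no base with a peak of the GSK126 list or of the untreated list. They were 7924 of the 15703 DMSO peaks, of 8994 DMSO peaks away from promoters, and of 31035 peaks in the 3 E2F1 lists together. Because the calls in all 3 lists chose them, their absence from the other 2 lists is not a finding.

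Of the 6 samples, 1 library each came from untreated cells (E2F1 and an input for which no values were used), from cells given DMSO for 72 h (E2F1) and from cells given 1 µM GSK126 for 72 h (E2F1). GSK126 inhibits EZH2, the enzyme that places 3 methyl groups on lysine 27 of histone H3 (H3K27me3). In the remaining 2 libraries, H3K27me3 was mapped in cells that had received either a control shRNA or one against E2F1 (shE2F1) by transduction over 24 h and were then kept for 72 h in puromycin at 2 µg/ml. All libraries were of 1 line, which has lost CDKN2A, and no group had a second library, so no test between conditions was possible and all intervals cover counting error only. Within 500 kb of CDKN2A, at chromosome 9 from 21967752 to 21995301, none of the 5 peak lists held a peak. The lists hold no expression values, so the loss of E2F1 in the shE2F1 cells was not checked here.

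E2F1 belongs to a family of factors that switch on genes of DNA replication and the cell cycle, and it is held in check by the retinoblastoma protein. Its sites are best known at GC-rich promoters close to a TSS. Peaks far from promoters can mark enhancers or sites of other factors. Tumor lines carry extra copies of many chromosome segments, and a segment with more copies gives more fragments in both the ChIP and the control library.

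The distal DMSO-only peaks were compared with 3 other classes. These were 1070 distal DMSO peaks that overlapped a GSK126 peak (distal shared peaks), 2694 distal GSK126 peaks that overlapped no DMSO or untreated peak (distal GSK126-only peaks), and 6709 DMSO peaks within 1 kb of a TSS (promoter peaks). Of all 15703 DMSO peaks, 53% overlapped no peak of the other 2 lists, wherever the summit lay. Among the peaks without such an overlap, 394 lay at promoters and the rest were the peaks described here.

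Sequences around 6 summits are shown because they cover the kinds of site found. They run 60 bp to each side of the summit, on the plus strand of hg38, and none lies in a UTR exon. The first is the distal DMSO-only peak with the highest −log10 q, at chr16:34588135-34588255, with every GGAAT, the unit of a human satellite repeat, in capitals on either strand. The second has the next highest −log10 q and is also the strongest with an E2F motif, at chr19:29760274-29760394, with the motif in capitals. The next pair are the strongest with an SP/KLF motif, at chr1:177112390-177112510, and with a CTCF core motif, at chr20:24075700-24075820, each with that motif in capitals. The last pair are the strongest peaks of long runs on chromosome 11, at chr11:115068552-115068672 near CADM1 and at chr11:131819891-131820011 in NTM, with each CpG in capitals.
Chromosome 16, GGAAT units: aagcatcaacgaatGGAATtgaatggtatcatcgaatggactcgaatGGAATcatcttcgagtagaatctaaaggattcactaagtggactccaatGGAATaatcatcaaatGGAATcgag
Chromosome 19, E2F motif: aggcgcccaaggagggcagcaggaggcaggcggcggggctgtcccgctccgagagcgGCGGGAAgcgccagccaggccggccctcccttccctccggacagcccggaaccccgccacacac
Chromosome 1, SP/KLF motif: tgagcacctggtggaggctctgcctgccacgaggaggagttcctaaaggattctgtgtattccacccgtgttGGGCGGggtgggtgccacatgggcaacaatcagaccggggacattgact
Chromosome 20, CTCF core motif: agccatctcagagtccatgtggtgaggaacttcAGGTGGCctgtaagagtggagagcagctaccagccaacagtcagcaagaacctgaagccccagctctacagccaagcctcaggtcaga
Chromosome 11, run near CADM1: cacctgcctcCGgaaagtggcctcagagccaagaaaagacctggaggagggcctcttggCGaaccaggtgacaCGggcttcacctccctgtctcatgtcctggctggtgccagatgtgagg
Chromosome 11, run in NTM: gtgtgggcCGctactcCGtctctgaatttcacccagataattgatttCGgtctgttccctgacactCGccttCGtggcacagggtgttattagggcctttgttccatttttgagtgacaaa
The 6 windows differ widely in base composition. GC content was 38.0% in the GGAAT window, 76.9% in the E2F motif window, 58.7% and 55.4% in the SP/KLF and CTCF windows, and 61.2% and 48.8% in the windows of the 2 runs. In the GGAAT window, only 16.7% of the 31-base words sampled around the summit occurred once in the genome, whereas in the other 5 windows all of them did.

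Most distal DMSO-only peaks were weak. The fold, which is the fragments at the summit over the local background with 1 added to each, had a median of 4.20 and ran from 2.52 to 8.16. The number of fragments at the summit, solved from the deposited fold and p-value, had a median of 13 and ran from 9 to 94. The −log10 q had a median of 3.75, and 1670 peaks (21.1%) reached 5. The median width was 376 bp, against 360 bp for the distal GSK126-only, 444.5 bp for the distal shared and 558 bp for the promoter peaks, and together they covered 3449.71 kb. The distal shared peaks had a median fold of 4.87 with 63.1% reaching a −log10 q of 5, the distal GSK126-only peaks one of 4.31 with 42.9%, and the promoter peaks one of 5.70 with 82.0%. As these values decide whether a peak is called at all, they describe the class and carry no test.

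Some of the peaks lay close to the limits that define them. The summit closest to a TSS was 1006 bp away, and the farthest DMSO summit left out as a promoter peak was 999 bp away. The smallest gap to a GSK126 peak was 2 bp and that to an untreated peak 798 bp, while the smallest overlap that kept a distal DMSO peak out was 3 bp. A GSK126 peak lay within 1000 bp of 280 distal DMSO-only peaks (3.53%) and within 10000 bp of 1776 (22.4%), and the median gap was 46715.5 bp. The lowest background was 1.82 fragments in DMSO and 1.70 in GSK126, a ratio of 0.935. The untreated list, with a lowest background of 0.668 fragments, was shallower.

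The strongest of these peaks were at sites of quite different kinds. The GGAAT site on chromosome 16, from 34588075 to 34588354, had 94 fragments over a background of 20.4, which gave 4.43 as fold and 28.3 as −log10 q. It lay between genes, and its background was 11.2 times the lowest in the list. The next, on chromosome 19 from 29760220 to 29760583, had 49 fragments, with 6.11 as fold and 20.9 as −log10 q. It was 44545 bp upstream of C19orf12, a gene of a mitochondrial membrane protein, and held the E2F motif printed above. After these came a peak between genes on chromosome 5 from 44171014 to 44171995, 217841 bp from FGF10, a growth factor of branching organs, where the fold was 7.17 and the −log10 q 13.7.

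The 5 highest folds ran only from 7.83 to 8.16, and each of these peaks had 22 fragments over nearly the lowest background. A pair shared the fold of 8.16, on chromosome 6 from 18844783 to 18845389, 457462 bp from RNF144B, a ubiquitin ligase, and in an intron on chromosome 10 from 28940030 to 28940362, 262593 bp from BAMBI, a decoy receptor of TGF-β signaling. The third was in an intron of ASTN1, which takes part in the migration of young neurons, on chromosome 1 from 177112249 to 177112985, where the fold was 8.03. Next came a peak in an intron on chromosome 1 from 60677719 to 60678564, 187102 bp from NFIA, a transcription factor, at 7.91, and one on chromosome 11 from 15307505 to 15308092, 72761 bp from INSC, an adaptor of spindle orientation, at 7.83. The remaining pair of the 10 peaks with the highest −log10 q were the one near CADM1 printed above (fold 7.17) and one on chromosome 3 from 93470475 to 93470756, 415844 bp from PROS1, the anticoagulant protein S, which had a fold of 4.15 over a background 6.08 times the lowest.

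The peaks lay far from gene starts. Median distance to the nearest TSS of any gene was 33580 bp and to the nearest TSS of a protein-coding gene 143317 bp. For the distal shared peaks these medians were 11617 and 31514 bp, and for the distal GSK126-only peaks 15739 and 47008.5 bp. A distance of at least 50 kb to every TSS was found for 36.0% of the distal DMSO-only peaks, for 193 of the 1070 shared and for 19.8% of the GSK126-only peaks.

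Of the 7924 summits, 4101 were in introns (51.8%, 95% interval 50.6 to 52.9) and 3657 between genes (46.2%, 45.0 to 47.3). Introns make up 55.4% of the ungapped genome and sequence between genes 39.3%. The distance of more than 1 kb to every TSS removes first exons and most 5′ UTRs by rule, so the genome shares are not a like comparison for exons. Among classes held to the same distance, coding exons had 51 of the distal DMSO-only summits (0.644%, 0.480 to 0.845), against 3.36% (2.37 to 4.63) of the shared and 1.63% (1.19 to 2.19) of the GSK126-only summits. UTR exons had 22 (0.278%, 0.174 to 0.420), against 1.87% (1.15 to 2.87) and 1.41% (1.00 to 1.93). With protein-coding genes alone as the annotation, 66.4% of the distal DMSO-only summits lay between genes, where 55.3% of the genome lies. Peaks in introns and between genes had median folds of 4.19 and 4.22 and the same median GC content around the summit, 48.3%.

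Along the chromosomes the distal DMSO-only peaks lay in dense runs with wide empty stretches between them. Their mean density was 2.72 per Mb. Of 2921 bins of 1 Mb, 1866 (63.9%) held none, whereas the densest held 95. The 147 densest bins, which are 5% of all, held 54.0% of the peaks. For the other classes, the same share of bins, ranked for each class on its own, held 47.4% of the distal shared, 37.2% of the distal GSK126-only and 25.0% of the promoter peaks. These shares also move with the size of the class, since fewer peaks can occupy fewer bins.

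**Figure D1:**
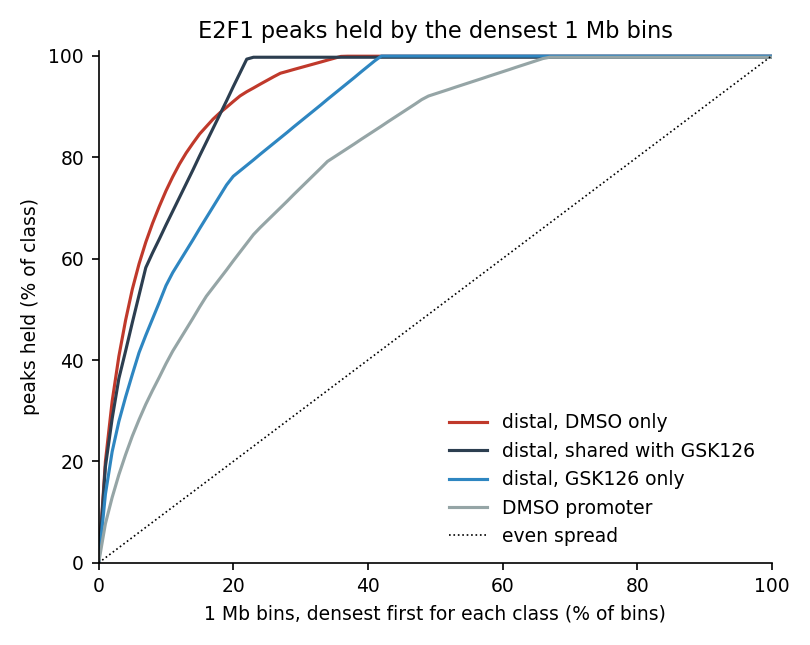
Share of the peaks of each class (vertical axis, %) held by a given share of 1 Mb bins (horizontal axis, %), with the bins ranked from the densest for each class separately and a dotted line for an even spread. The curve of the distal DMSO-only peaks rises fastest at first, reaching 54.0% at 5% of bins, against 25.0% for the promoter peaks. Class size also moves the curves.

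Neighbors were close together as well. The median spacing between adjacent summits was 24.2 kb for the distal DMSO-only peaks, 270 kb for the distal GSK126-only peaks, 710 kb for the distal shared peaks and 148 kb for the promoter peaks. The classes differ in size, which moves the spacing too. When summits no more than 100 kb apart were joined and runs of at least 10 were kept, 163 runs held 4271 of the peaks (53.9%) in 78.1 Mb, which is 2.68% of the ungapped genome. The median run was 395 kb long. The 6709 promoter peaks gave 25 runs with 5.02% of that class by the same rule.

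The largest runs covered single very long genes or sequence with few genes. The run with most peaks, 153 over 1825.2 kb, lay on chromosome 11 from 114663093 to 116488296. CADM1, an adhesion molecule of epithelia and neurons, is the only protein-coding gene with peaks inside it there, and it held 8. On chromosome 20, from 41818914 to 43295881, 127 peaks formed a run, of which 102 were in PTPRT, a receptor tyrosine phosphatase of the nervous system. On chromosome 11, from 131111596 to 132228242, a run had 100 peaks, 85 of them in NTM, the adhesion molecule neurotrimin. A further run on the same arm, from 133020281 to 134117278, had 99 peaks with 49 in OPCML, which belongs to the same adhesion family as NTM. A run of 100 on chromosome 14, from 97227893 to 99100400, held none in a protein-coding gene. On chromosome 7, from 153839795 to 154839456, all 83 peaks of a run were in DPP6, an auxiliary subunit of voltage-gated potassium channels.

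**Figure D2:**
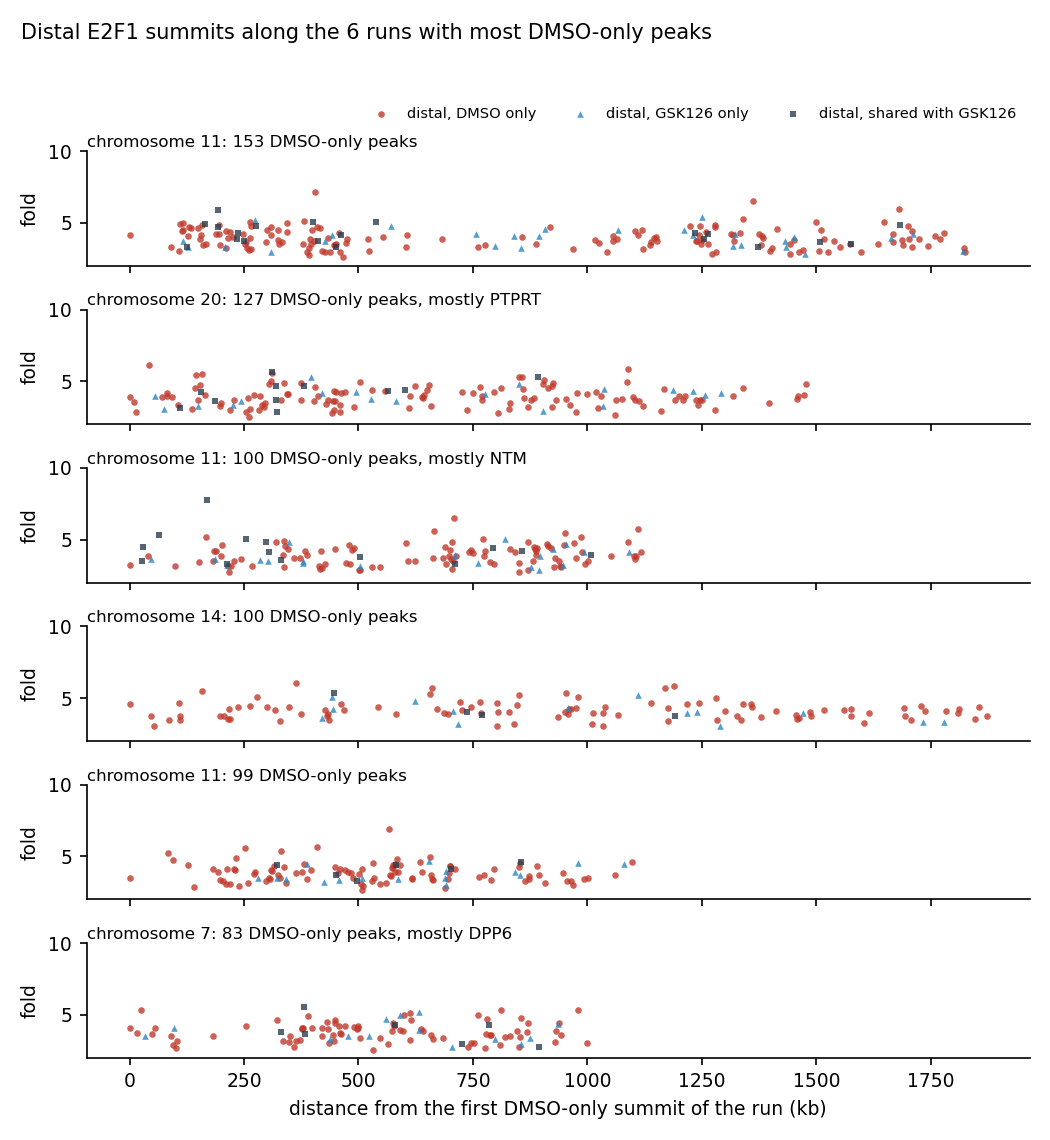
Fold of each distal E2F1 summit (vertical axis) against its distance in kb from the first distal DMSO-only summit of the run (horizontal axis), for the 6 runs with most distal DMSO-only peaks. Red circles are distal DMSO-only, blue triangles distal GSK126-only and dark squares distal shared summits, and all 3 kinds are interleaved along each run at folds of mostly 3 to 5.

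The 6 densest bins of 1 Mb repeated these places. They held 95 peaks (chromosome 11, from 133000001, OPCML), 95 (chromosome 20, from 42000001, PTPRT), 75 (chromosome 11, from 131000001, NTM), 74 (chromosome 7, from 154000001, DPP6), 70 (chromosome 11, from 115000001, CADM1) and 64 (chromosome 7, from 153000001, with 9 in DPP6). Each of these bins also held 12 to 16 distal GSK126-only peaks and 6 to 13 distal shared peaks. None had more than 3 GSK126 promoter peaks or more than 3 starts of protein-coding genes.

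Distal peaks of the other classes were dense in the same runs, which were set by the DMSO-only peaks alone. Inside the runs the distal GSK126-only peaks had 9.23 per Mb and outside 0.696 per Mb, and 26.8% of that class (721 of 2694) lay in them. The distal shared peaks had 3.97 per Mb inside and 0.268 outside, with 29.0% of the class (310 of 1070) in runs. Promoter peaks went the other way, with 1.78 per Mb inside and 2.32 outside in DMSO, and 0.512 inside and 3.71 outside in GSK126. Of the 66 distal peaks of the untreated list, 3 were in runs. The GSK126-only peaks were called in another library and played no part in setting the runs, except that a DMSO-only peak may not overlap one.

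The runs were poor in starts of protein-coding genes and, in the GSK126 list, in promoters with E2F1. They held 1.34 starts of protein-coding genes per Mb, against 7.01 outside. Of the 105 protein-coding genes that start in a run, 11 had a GSK126 E2F1 peak within 1 kb of the start (10.5%, 5.35 to 18.0), against 46.5% of the 19857 genes outside. For DMSO peaks the share was 21.9% inside and 29.5% outside. GC content of the runs, 41.0%, was close to the 40.9% outside. H3K27me3 peaks covered 2.96% of the run sequence in control shRNA and 5.98% in shE2F1, and 4.97% and 6.15% of the sequence outside.

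The genes with most distal DMSO-only peaks inside them were very long. After PTPRT (102), NTM (85), DPP6 (83) and OPCML (49) came NRXN3, a presynaptic adhesion protein, with 48, DAB1, an adaptor of reelin signaling, with 45, and AGBL4, an enzyme that trims glutamate chains from tubulin, with 40. CSMD2, a membrane protein with CUB and sushi domains, had 39, SGCD, a subunit of the sarcoglycan complex of muscle, 38, and FAT3, an atypical cadherin, 37. These 10 genes span 652 to 1697.92 kb. None had a GSK126 E2F1 peak within 1 kb of its start, and in DMSO PTPRT and SGCD did. Distal GSK126-only peaks in them numbered from 3 in SGCD to 17 in NTM. The genes were picked by their DMSO-only counts, and the GSK126-only class is smaller. Over the genome that class had 0.925 peaks per Mb, against 2.72 for the DMSO-only class. The counts are therefore no comparison of the classes.

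Over all protein-coding genes, 153 held at least 5 of the peaks and had a median length of 495 kb, against 27.5 kb for all 19962. A GSK126 peak at the start was found for 20.3% of these 153 genes. Among the 1164 genes of at least 200 kb without any distal DMSO-only peak the share was 48.5%, and among the 136 genes of that length with at least 5 it was 22.1%. Measured per 100 kb, among genes with at least 5 peaks, the highest densities were 17.4 in NRSN1, a vesicle protein of neurons (5 peaks), 12.8 in C14orf132 (7 peaks), 11.8 in TUNAR (7 peaks), 9.28 in RNF144A, a ubiquitin ligase (14 peaks), and 9.13 in PTPRT. These counts follow from where the runs are and say nothing of the activity of the genes.

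Few genes of the lists examined, like few genes of the genome, had a distal DMSO-only peak near them. Of all 19962 protein-coding genes, 1132 (5.67%) had one within 100 kb of a TSS. Of 25 cell cycle targets of E2F factors, 1 did, CCNE1, which encodes cyclin E1, on chromosome 19 from 29811991 to 29824312. Its single peak is the one with the E2F motif printed above, and it has a CpG-rich window with 16 CpG. None of 15 targets of AP-1 and YAP/TEAD, 15 mesenchymal and basal genes and 13 luminal genes had one, and of 14 oncogenes often gained in breast cancer again only CCNE1 did. A distal GSK126-only peak was within 100 kb of 6 of the 25 E2F targets, 7 of the 15 AP-1 and YAP/TEAD targets (with 3 at FOSL1 and 2 at FOSL2), 2 of the mesenchymal and basal, 6 of the luminal and 3 of the gained genes. Over all protein-coding genes this was 3729. The lists are small, and the numbers describe these genes only.

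Density differed widely between chromosomes. Chromosome 20 had 7.01 distal DMSO-only peaks per Mb and chromosome 11 had 6.58, followed by chromosome 1 with 4.45, chromosome 5 with 4.24 and chromosome 7 with 3.97. At the other end were chromosome 22 with 0.0766 per Mb, from 3 peaks, chromosome 13 with 0.184, chromosome 21 with 0.698, chromosome 15 with 0.792, X with 0.872 and chromosome 16 with 0.880. Promoter peaks followed this order only in part, as chromosome 22 had 3.14 per Mb, chromosome 16 had 2.95 and chromosome 20 had 2.86. Their density over the genome was 2.30 per Mb. X with 1.05, chromosome 21 with 1.20 and chromosome 13 with 1.38 were low in both classes, and chromosome 11 with 3.24 was high in both.

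A reading of the local background was used to set these densities beside possible gains of DNA copies, since the files hold no copy number. MACS2 takes the background at a summit as the highest of a genome-wide value and values over windows around it. Divided by the lowest value of its list and taken over the promoter peaks of the GSK126 list, which are not among the peaks described, it had a median of 3.15 on chromosome 20 and 3.01 on chromosome 11, the 2 highest, and of 2.71 on chromosome 7. It was 1.65 on chromosome 13, the lowest, and 1.77 on chromosomes 15, 16, 21 and 22. Chromosome 19 departed from this order, with a background of 2.82 and 1.08 distal DMSO-only peaks per Mb. Across the 23 chromosomes, Spearman's rho between density and background was 0.726, and between density and protein-coding genes per Mb it was -0.00296. Density of the distal GSK126-only peaks gave a rho of 0.790 with that of the DMSO-only peaks. All of these come from libraries of the same line, and the background may also move with chromatin state and mappability, whose part was not tested.

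**Figure D3:**
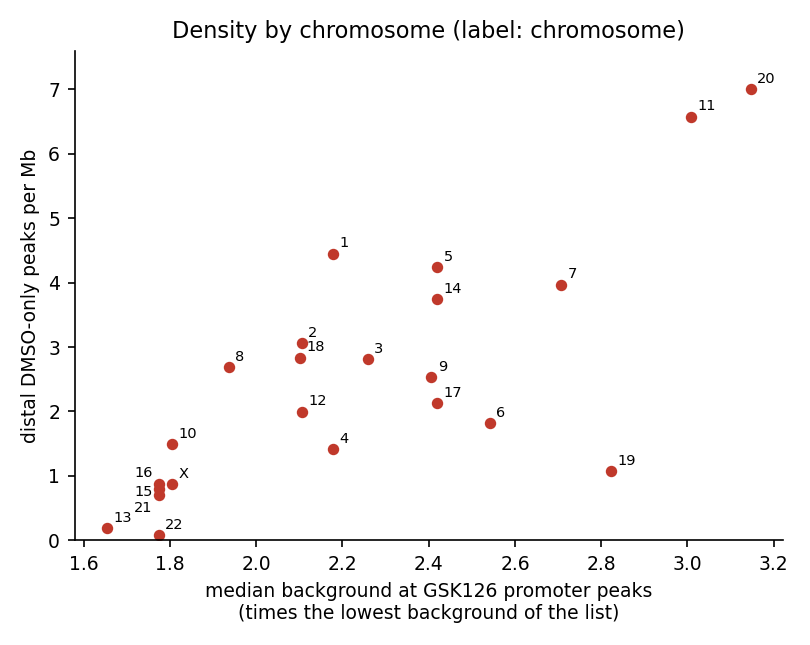
Distal DMSO-only peaks per Mb of ungapped sequence (vertical axis) against the median background at GSK126 promoter peaks over the lowest background of that list (horizontal axis), 1 point for each of the 23 chromosomes, labelled with its name. Chromosomes 20 and 11 are at the upper right, chromosomes 13 and 22 at the lower left, and chromosome 19 is low in density at a background of 2.82.

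The relation was examined over smaller segments too. In bins of 5 Mb with at least 3 GSK126 promoter peaks, the density of distal DMSO-only peaks was 1.36 per Mb where the background was below 1.5, 1.55 from 1.5 to 2, 3.08 from 2 to 2.5, 3.37 from 2.5 to 3 and 6.30 at 3 or more. The GSK126-only density rose in the same bins from 0.389 to 1.93 per Mb. Over the 535 bins of 5 Mb rho was 0.231, and over the 1368 bins of 1 Mb it was 0.0615. The bins of 5 Mb held 7551 of the 7924 peaks, but those of 1 Mb only 1925 (24.3%), and 1 of the 6 densest bins was among them, because the others had fewer than 3 GSK126 promoter peaks. The value for 1 Mb therefore leaves most of the runs out. On chromosome 8 from 5000001 to 20000000, on chromosome 9 from 5000001 to 15000000 and on chromosome 21 from 15000001 to 20000000 the background was at the lowest value and there was no distal DMSO-only peak. A high background was not always matched by peaks, since 10 of the 54 bins of 5 Mb at 3 or more (18.5%) held none, among them chromosome 6 from 30000001 to 35000000 and chromosome 14 from 50000001 to 55000000, both at 3.61. Inside the runs themselves, the 40 GSK126 promoter peaks had a median background of 1.48, below the 2.34 of those outside, while the distal DMSO-only peaks had a median of 1.41 inside and 1.15 outside.

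At the distal DMSO-only summits the background was low. Its median was 1.22 times the lowest value, 29.2% of the summits were at the lowest value and 13.1% at 2 or more times it. In the distal shared peaks the median was 1.82, in the distal GSK126-only peaks 1.5 and in the promoter peaks 2.18. Of the 2313 peaks at the lowest background, 34.8% were in runs, against 77.8% of the 1042 at 2 times the lowest or more. The latter had a lower median fold, 3.32 against 4.61. As fold and calling both use the background, these values describe the class only.

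The sequence under the summits was richer in GC than its surroundings. In the 201 bp around the summit the median GC content was 48.3% (quartiles 44.8 and 52.7), against 40.8% at 2 kb to either side and 40.0% in the 50 kb around. GC content at the summit was above that of the surrounding 50 kb for 93.8% of the peaks. The medians were 55.2% in the distal shared, 51.2% in the distal GSK126-only and 69.7% in the promoter peaks, with 44.8%, 43.8% and 44.8% at 2 kb away. By these medians, the rise from 2 kb away to the summit was the same in the distal DMSO-only and GSK126-only classes and greater in the other two. In the mean profile, from beyond 2500 bp to the highest value, it was 8.14 points for DMSO-only and 9.40 for GSK126-only peaks. Mean GC content lay above the midpoint between its highest value and its level beyond 2500 bp over 600 bp around the summit in the 3 distal classes and over 1000 bp at promoters.

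**Figure D4:**
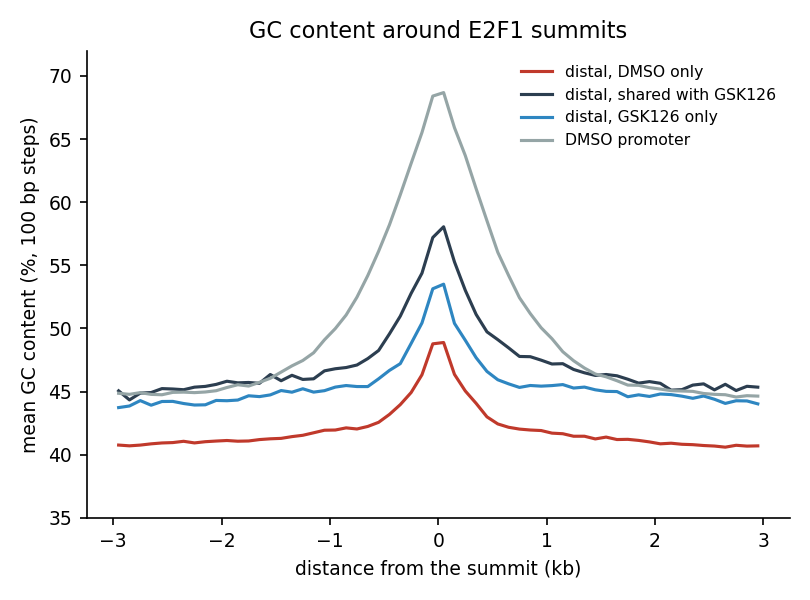
Mean GC content (vertical axis, %, steps of 100 bp) against the distance from the summit (horizontal axis, kb) for the 4 classes of E2F1 peaks. The distal DMSO-only curve peaks at 48.9% from a level of 40.7% beyond 2.5 kb, and lies below the other 3 curves throughout.

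The DMSO-only windows were poor in CpG. They held 2.16 CpG on average, against 1.5 at 2 kb away, and the CpG count relative to that expected from their C and G was 0.183, close to the 0.178 away from the summit. The distal shared windows held 9.19 CpG at a relative count of 0.546, the distal GSK126-only windows 5.89 at 0.412 and the promoter windows 20.6 at 0.880. At least 10 CpG were present in 106 distal DMSO-only windows (1.34%), in 37.1% of the distal shared, 19.9% of the distal GSK126-only and 91.7% of the promoter windows. These 106 had an E2F motif in 9 cases (8.49%, 3.96 to 15.5) and were in runs in 39.6%, against 54.1% of the others.

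The E2F motif was rare at the distal DMSO-only summits. It was searched as TTGGCGC, also as TTGCCGC, further as TTCGCGC and finally as TTCCCGC, on both strands within 100 bp of the summit. It occurred in 127 of the 7924 windows (1.60%, 1.34 to 1.90), at 2 kb away in 0.700% of windows, and in 0.981% of all 201 bp tiles of the genome. When the tiles were weighted to the GC content of the DMSO-only windows, the share was 1.44%, inside the interval at the summits. By position, the motif was in 0.467% and 0.530% of DMSO-only windows in the 2 steps of 50 bp beside the summit. In the other steps within 500 bp it was in 0.177% to 0.416%. The distal shared windows had it in 13.0% and 10.8% in the steps beside the summit. The distal shared windows had the motif in 26.7% (24.1 to 29.5) against 4.74% of tiles weighted in the same way, the distal GSK126-only windows in 11.0% (9.83 to 12.2) against 3.05%, and the promoter windows in 34.9% (33.8 to 36.1) against 9.53%. None of these intervals meets that of the DMSO-only windows. Every word searched holds a CpG, and the weighting matched GC content but not CpG content, which differed between the classes. The relative CpG count was 0.183 in DMSO-only, 0.546 in distal shared, 0.412 in distal GSK126-only and 0.880 in promoter windows. The part of CpG content in these shares was not tested. The windows are not independent, because many lie in the same run.

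The share with the motif differed with the strength of the peak. It was in 1.39% of the 6254 DMSO-only windows with a −log10 q under 5 (1.12 to 1.71), in 2.22% of the 1619 from 5 to 10 (1.56 to 3.06) and in 4 of the 51 above 10 (7.84%, 2.18 to 18.9). The first 2 intervals overlap, as do the last 2. The motif was present in 1.48% of windows inside runs (1.14 to 1.88) and in 1.75% outside (1.35 to 2.23), intervals that overlap. Peaks with the motif had a median fold of 4.26 and those without of 4.20.

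Motifs of other factors were searched in the same windows on both strands. The CTCF core (AGGGGGC or AGGTGGC) was in 7.24% of windows (6.68 to 7.84), against 4.41% at 2 kb, 3.96% of all tiles and 6.58% of weighted tiles. SP/KLF (GGGCGG), which can overlap an E2F match, was in 3.27% (2.89 to 3.68), against 1.67% at 2 kb and 2.85% of all tiles, and it was below the 5.05% of weighted tiles. ETS (CCGGAA) was in 1.72% (1.44 to 2.03), against 1.05% at 2 kb, 1.29% of all tiles and 1.90% of weighted tiles. E-box (CACGTG) was in 2.84% of windows and in 2.84% of weighted tiles, with 1.87% at 2 kb and 1.85% of all tiles. The SP/KLF, ETS and E-box letters also hold a CpG, which the weighting did not match.

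Besides the CTCF core, the NFI and TEAD motifs had intervals above the share at 2 kb and that of weighted tiles. NFI half-sites (TTGGCA) were in 13.2% of windows (12.5 to 14.0), against 10.9% at 2 kb, 9.93% of all tiles and 9.79% of weighted tiles. TEAD (CATTCC), whose letters also occur in the satellite unit, was in 13.5% (12.7 to 14.2), against 11.5% at 2 kb, 10.9% of all tiles and 11.3% of weighted tiles. The CTCF core, NFI and TEAD were also above weighted tiles in the distal shared and GSK126-only windows. There TEAD was in 13.6% and 13.9%, against 9.04% and 10.2% of weighted tiles. The CTCF core was in 14.0% and 10.9%, against 12.3% and 9.53%, and the interval in shared windows included its weighted share. NFI was in 9.81% and 11.1%, against 8.095% and 8.996%, with 10.8% and 10.4% at 2 kb. AP-1 (TGANTCA) was in 6.90% (6.35 to 7.48), above the 5.97% of weighted tiles and 6.20% of all tiles but level with the 7.05% at 2 kb. The distal shared and GSK126-only windows had AP-1 in 10.2% (8.44 to 12.2) and 11.8% (10.6 to 13.1), and their shares at 2 kb were 4.86% and 6.07%. The AP-1 share of the DMSO-only windows did not rise toward the summit, at 1.73% and 1.87% in the 2 steps of 50 bp beside it and 1.59% to 2.09% in the other steps within 500 bp.

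**Figure D5:**
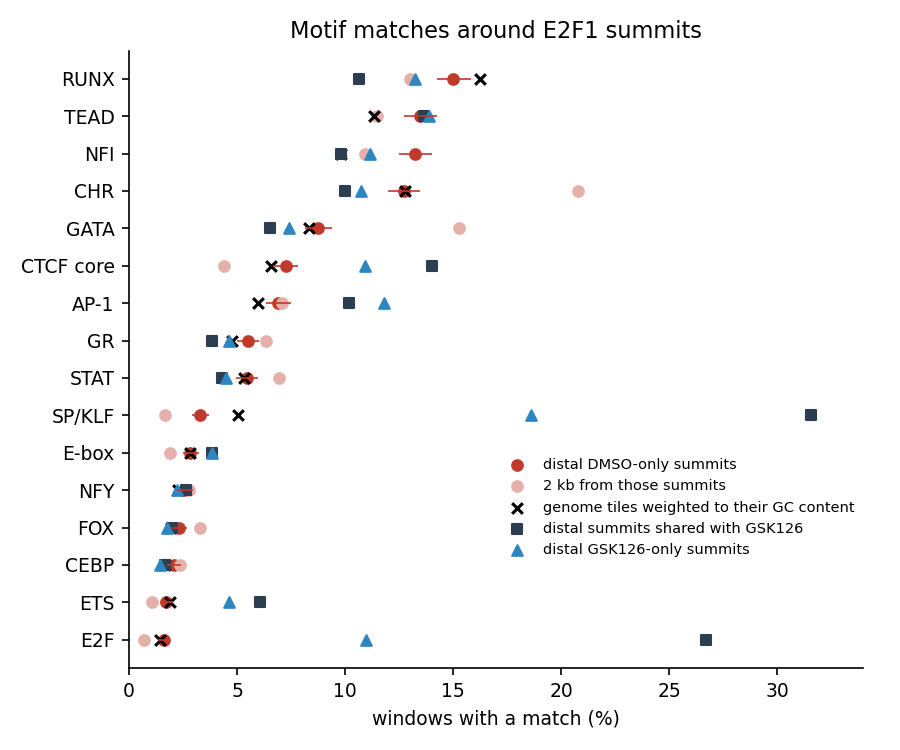
Share of 201 bp windows with a match (horizontal axis, %) for 16 motifs (vertical axis) at distal DMSO-only summits (red circles with exact 95% intervals), 2 kb from those summits (pale circles), in genome tiles weighted to their GC content (crosses), and at distal shared (squares) and distal GSK126-only summits (triangles). E2F, at the bottom, is at 1.60% in the DMSO-only windows, 11.0% in the GSK126-only and 26.7% in the shared windows.

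Motifs made mostly of A and T were scarcer at the summits than beside them. The site of GATA factors, with the letters AGATAA, was in 8.75% of windows and in 15.3% at 2 kb, with 14.5% of all tiles and 8.31% of weighted tiles. The cell cycle element CHR (TTTGAA) was in 12.7%, against 20.8% at 2 kb, 22.2% of all tiles and 12.8% of weighted tiles, and FOX (TGTTTAC) in 2.31% (1.99 to 2.66), against 3.28%, 3.10% and 1.95%. RUNX (TGTGGT), which is not mostly A and T, was instead more frequent at the summits, in 1190 windows (14.2% to 15.8%) against 13.0% at 2 kb. It was in 13.5% of all tiles and 16.3% of weighted tiles. CEBP (TTGCNNCAA), GR (ACANNNTGT), STAT (TTCNNNGAA) and NFY (CCAATCA) were in 2.06%, 5.50%, 5.45% and 2.56%, all below their shares at 2 kb of 2.34%, 6.34%, 6.92% and 2.79%. In all tiles these 4 were in 2.23%, 6.15%, 8.17% and 2.17%, and in weighted tiles in 1.66%, 4.77%, 5.34% and 2.25%. The weighted shares were below those of the summits for all 4, and below the interval at the summits for CEBP (1.76 to 2.39) and GR (5.01 to 6.03). The CRE (TGACGTCA) was in 3 windows, and in 0.0696% of all tiles. The satellite unit repeated without a break was in 8 windows (0.101%) and in 0.0293% of all tiles.

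Without a motif chosen beforehand, hexamers were compared with the windows 2 kb away only, without weighting for GC content. Of 2080 hexamers, joined with their reverse complements, 62 were at least 2 times as frequent at the summits as 2 kb away, and 59 of these held a CpG. At least 1 CpG was in 80.4% of the summit windows, above the 68.2% at 2 kb but below the 87.0% of weighted tiles. The highest ratio was 2.71, for CGCGAC, which was in only 19 windows. The highest ratio without a CpG was 2.21, for GGGCCC, in 468 windows. The lowest was 0.216, for TATATA, in 150 windows.

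Most summit windows were unique in the genome. Of 31-base words taken every 10 bp across each window, all occurred once in the genome for 71.1% of the distal DMSO-only windows, against 74.2% of windows 2 kb away, 76.5% of distal GSK126-only and 80.1% of distal shared windows. At 14 of the 7924 summits no word was unique.

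H3K27me3 peaks overlapped more of the distal DMSO-only peaks in shE2F1 than in control shRNA. The mark's lists were first checked at genes where it is well known. Of 4 HOX genes, which the mark often covers, a peak lay within 1 kb of a TSS at 1 in control shRNA (HOXA9) and at 0 in shE2F1. Of ACTB and GAPDH, which are active in nearly all cells and usually lack it, 1 had a peak in control shRNA (ACTB) and 2 in shE2F1. The lists therefore do not show the usual distribution of the mark at these genes, and the overlaps below are overlaps with the deposited peaks.

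Of the 7924 peaks, 751 (9.48%, 8.84 to 10.1) overlapped a peak of the mark with the control shRNA, and with shE2F1 1246 did (15.7%, 14.9 to 16.5). When the peak of the mark had to reach a −log10 q of 2, only 1.5% (1.25 to 1.79) and 2.39% (2.06 to 2.75) overlapped, so most of the overlaps were with calls of the mark below that value. With all calls, the same intervals moved by 5 kb to each side overlapped in 4.13% and 7.37%. A peak in shE2F1 alone was found for 774 (9.77%) and in control shRNA alone for 279 (3.52%). Of all 15703 DMSO peaks the shares were 22.8% and 2.18%, so the difference between the shRNA libraries was smaller at the distal DMSO-only peaks than over the whole list.

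In the other classes, the shE2F1 library overlapped 21.2% of the distal shared peaks (18.8 to 23.8), 20.4% of the distal GSK126-only and 51.4% of the promoter peaks (50.2 to 52.6), and control shRNA overlapped 8.60%, 12.2% and 12.6%. Inside runs, 8.19% of the distal DMSO-only peaks overlapped a peak in control shRNA and 15.5% in shE2F1, and outside 401 and 585 of 3653 did. The share fell with distance from genes, from 12.2% in control shRNA and 19.6% in shE2F1 for peaks within 10 kb of a TSS to 6.79% and 13.1% for those at least 50 kb away. Each figure rests on 1 library per shRNA.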

How the data were processed

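E2F1 peaks of 3 libraries and H3K27me3 peaks of 2 libraries were analysed, with 1 library per group and n = 1. Per the labels and methods, the authors trimmed 150-bp read pairs with cutadapt 4.5, aligned them to GRCh38 with Bowtie2 2.5.2 and called peaks per library with MACS2 2.2.9.1 at q 0.01. The deposited files give a fold (ratio) and −log10 p and −log10 q for each peak. The H3K27me3 lists were called in broad mode, for which the methods give a separate cutoff that is looser than q 0.01. The library used as control and the total depth are not given in the sources used here, so depth was read from the lowest background. From the deposited ratio and −log10 p, whole fragments and background were solved at each summit, all peaks within 2e-05. Sequence and genes came from hg38 and GENCODE 44. Analyses used Python 3.11.15, NumPy 2.4.6, pandas 2.3.3, SciPy 1.17.1, numba 0.67.0 and matplotlib 3.10.9, and the counting steps were tested on simulated data. Shares carry exact (Clopper-Pearson) 95% intervals, which cover counting error only, and correlations over bins or chromosomes are descriptions without p. Genome tiles of 201 bp were weighted in GC classes of 2%. Peaks named were the 10 with the highest −log10 q and the 5 with the highest fold, the 6 densest bins, the 10 genes with most peaks and the 5 densest per 100 kb, with sequences of the strongest peaks. The strongest peaks of runs, other runs, CCNE1 and the genes named beside it were added after their values were seen. The members, the gene lists and the tests were chosen with earlier results of these data known.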

Additional observations from a re-analysis of the deposited data

How the results depend on the processing

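Of 31 alternatives to the main results, 5 stayed within the counting interval, 4 were counts that stayed within 1.5 times the main count, and 22 moved. Only the rank correlations could change sign, and they did not. A minimum of 5 for −log10 q left 1670 peaks, with 44.9% between genes, 67.1% in the densest 5% of bins, 16.3% in runs rebuilt from these fewer peaks, an E2F motif in 2.40% and 468 protein-coding genes within 100 kb. Counting protein-coding genes alone gave 32.6% in introns and 66.4% between genes. The densest 5% of bins held 60.5% at 500 kb, 36.3% at 5 Mb, 48.2% for peaks at the lowest background and 60.3% for peaks with unique 31-base words. Shares in the densest bins that rest on fewer peaks also move with the number of peaks. The rank correlation with the background was 0.231 in bins of 5 Mb and 0.00774 with at least 10 promoter peaks per bin. The E2F motif was within 50 bp of the summit in 0.946%. Overlap with H3K27me3 was 6.80% in control shRNA and 11.8% in shE2F1 when at least 50% of the E2F1 peak had to be covered, and 1.5% and 2.39% when the H3K27me3 peak had to reach a −log10 q of 2. Runs held 35.2% with neighbors within 50 kb, 68.4% within 200 kb and 50.7% with unique words. In the runs as reported, 63.9% of the peaks with a −log10 q from 5 to 10 and 68.6% of those above 10 lay inside, against 51.2% of those under 5. Genes with a peak within 50 kb of a TSS numbered 755, against 1132 within 100 kb. The alternatives for runs and for unique words were chosen after seeing the data. Of 51 alternatives for single motifs, 28 moved. Where no construction explains a move, the cause was not tested. No paired analysis was possible because each group had 1 library and no result came from a test. A repeat without soft-masked windows was not run, as the reference used here carries no soft-masking. The total depth is not known here, and the median peak rested on 13 fragments.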
